A study of Cornus officinalis with 7 samples.

Results

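The unigenes described here were measured in both leaf stages of *Cornus officinalis* and, relative to leaf, at a low level in young stem, pericarp, seed and inflorescence. A unigene is an assembled transcript sequence, and expression is given as FPKM, the fragments of a unigene scaled by its length and by the mapped fragments of the library. A unigene was kept when its FPKM in each of these 4 tissues was below 10% of the lower of its young leaf and mature leaf FPKM, called the lower leaf FPKM here. Of 304371 unigenes, 3427 met this limit, and the 200 with the highest lower leaf FPKM are the members. The members were thus chosen by the measured FPKM of 6 tissues. Their leaf levels and their lower levels in these 4 tissues are therefore descriptions and carry no test. The mature stem library was not used by the rule.

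The series compared 7 tissues of this medicinal tree, namely leaf and stem at a young and a mature stage each, together with inflorescence, seed and pericarp. RNA of each tissue was sequenced as 1 strand-specific library, without treatment, and the labels give the same plant material and an age of 12 years for all 7. With 1 library per tissue there is no replicate error, no p-value is given, and a difference between tissues is a difference between these libraries. Bulk tissue was sequenced, so more cells of a type and more RNA per cell cannot be told apart.

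Leaves are the main site of photosynthesis in a woody plant. As background, a young leaf still imports sugar and builds its chloroplasts, while a mature leaf exports sugar and holds a complete photosynthetic and defensive chemistry. Transcripts that plants keep at high levels in leaves of any age include those for light-harvesting proteins, carbon fixation and leaf-specific branches of specialized metabolism. In *C. officinalis* the specialized metabolites include iridoids, which are monoterpene-derived compounds that start from geraniol, and triterpenoids. The deposited tables do not pair unigenes with gene names. Enzyme names were taken for 549 unigenes from the annotation lists for iridoids, triterpenoids, gallotannins and cytochrome P450s, where they rest on sequence similarity. The wider annotation of the assembly, unigene by unigene, was not used here. These lists named 4 of the members and not the other 196, so whether the members belong to photosynthesis was not analysed here, and the leaf labels could not be checked against named leaf markers.

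Library sums of FPKM ranged from 876794 (young stem) to 992186 (mature stem). FPKM carries no read counts, so only the relative depth could be read, from unigenes above 0 in exactly 2 libraries. What 1 fragment was worth in mature leaf was 1.01 times its worth in young leaf, and this factor was 0.88 in young stem, 0.93 in seed, 1.27 in pericarp and 1.49 in inflorescence. A larger factor means a shallower library and fewer low values detected. No common step was found in mature stem, a library that stands apart from the others in most unigenes.

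Both leaf libraries devoted a few percent of their FPKM to the members. The members summed to an FPKM of 30024 in young leaf and 36530 in mature leaf, which was 3.17% and 3.99% of the respective library sum. Outside the leaves the members summed to 1649 in young stem, which was 0.188% of that library, and to 1078 (0.114%) in inflorescence. The sums were 843 (0.0865%) in pericarp, 145 (0.0163%) in seed and 3.0 (0.000297%) in mature stem. Apart from mature stem, these low sums follow from the rule. The sum was concentrated in few unigenes: the 10 members with the highest lower leaf FPKM held 70.4% of the member sum in young leaf and 63.3% in mature leaf. The other 190 members held 0.939% and 1.46% of the library sum. All 3427 unigenes that met the limit held 3.69% of young leaf and 4.64% of mature leaf, so the 200 members carried most of what the limit selects.

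**Figure D1:**
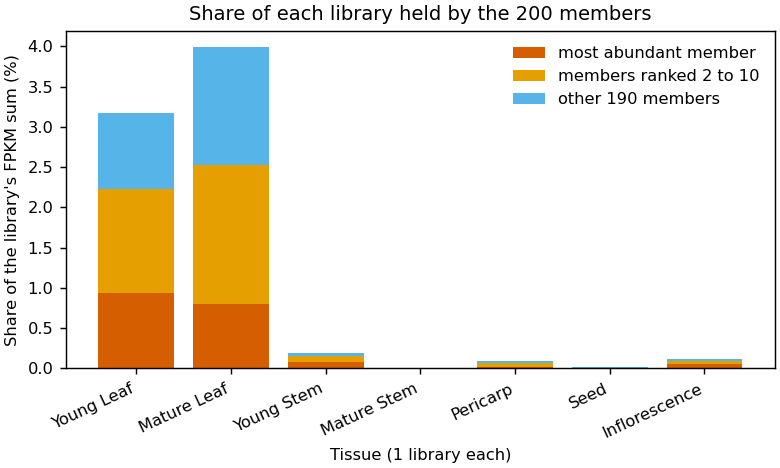
Share of each library's FPKM sum held by the 200 members (y axis, %) in 7 tissues with 1 library each; colours divide the most abundant member, the members ranked 2 to 10 and the other 190. The stacks reach 3.17% in young leaf and 3.99% in mature leaf and 0.188% or less elsewhere.

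Members were spread over a wide range of levels. The lower leaf FPKM was at least 1000 for 6 members, 100 to 1000 for 28, 10 to 100 for 89 and below 10 for 77. The median FPKM was 17.2 in young leaf and 24.9 in mature leaf. Among the 100 unigenes with the highest FPKM of a leaf library, 10 were members in young leaf and 10 in mature leaf. The share of unigenes that met the limit was higher at the highest leaf levels: members made up 8.7% of the 69 unigenes with a lower leaf FPKM of at least 1000, 3.82% of 733 at 100 to 1000, 0.993% of 8963 at 10 to 100, and 0.925% of 8321 from there down to the level of the last member. Over all 18086 unigenes at or above that level, which is an FPKM of 4.39, the share was 1.11%. The last member, Unigene294187, had 5.65 in young leaf and 4.39 in mature leaf, and the first unigene past it, Unigene279818, had 4.38 and 5.68.

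Unigene125168 led the members by a wide margin. Its FPKM was 8826 in young leaf and 7332 in mature leaf. Young stem had 715, inflorescence 563, pericarp 219.8 and seed 37.6, and mature stem was listed at 0. It ranked 4 in young leaf and 5 in mature leaf among all unigenes. Its young stem value was 9.76% of the lower leaf value, close to the limit, and it alone held 0.931% of the young leaf sum. Without it the members held 2.24% of young leaf and 3.19% of mature leaf.

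Unigene211795 ranked next and had a much sharper profile. Its FPKM was 2685 in young leaf and 4131 in mature leaf, against 11.0 in pericarp, 1.35 in mature stem, 0.83 in young stem, 0.75 in seed and 0.69 in inflorescence. Its highest value outside the leaves was 0.41% of the lower leaf value. These leading members show the range of profiles under 1 rule, from unigenes with a clear level in young stem and inflorescence to unigenes measured almost solely in leaf.

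**Figure D2:**
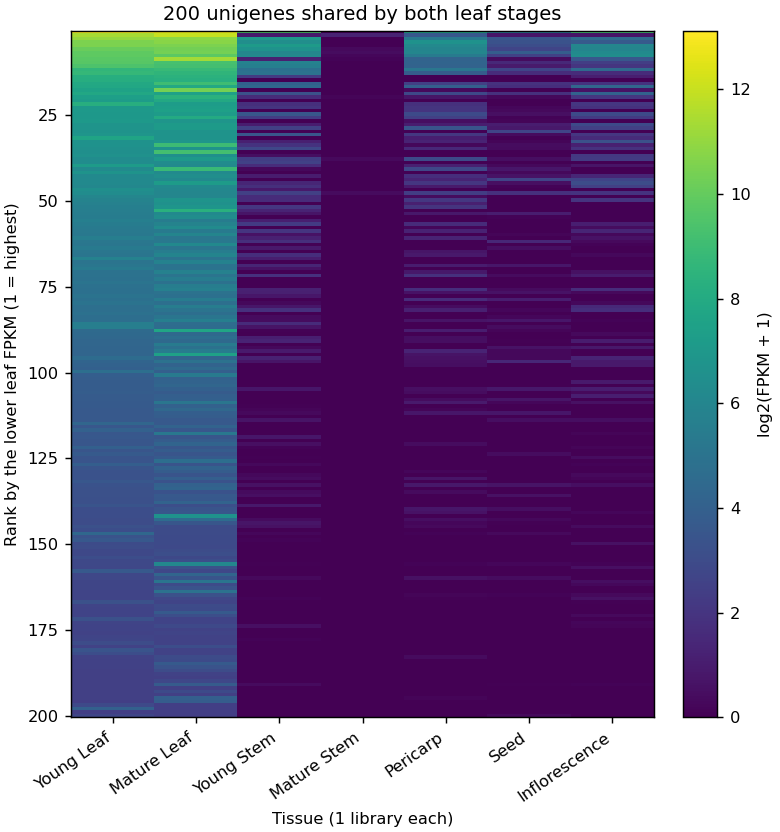
Expression of the 200 members as log2(FPKM + 1) (colour) in 7 tissues (x axis, 1 library each), ordered by the lower leaf FPKM (y axis). Both leaf columns are above 0 throughout and fade toward the lower ranks. The other columns hold values mainly among the highest-ranked members, and mature stem is at 0 for 192 members.

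The profiles outside the leaves ranged from a listed 0 to just under the limit. In all 4 tissues of the rule, 62 members (31.0%) were listed at 0, while 43 members were above 0 in all 4. For 72 members every one of these values was below 1% of the lower leaf FPKM, and for 74 members the highest reached at least 5%. Since a listed 0 may stand for too few fragments or for a failed estimate, it is not read as absence. The share listed at 0 followed the leaf level. None of the 6 members with a lower leaf FPKM of at least 1000 was at 0 in all 4 tissues, as against 2 of 28 at 100 to 1000, 17 of 89 at 10 to 100 and 43 of 77 below 10. The most abundant member at 0 in all 4 tissues, chosen after its values were seen, was Unigene301545 with 282 in young leaf and 311 in mature leaf.

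Young stem was the tissue most often next in level among all members. It held the highest value outside the leaves for 54 members, pericarp for 36, inflorescence for 35 and seed for 13. Among members with a lower leaf FPKM below 10 the order differed, with inflorescence next for 11, pericarp for 10, young stem for 8 and seed for 5. The order also turned when pericarp was left out of the rule, with pericarp next for 98 members and young stem for 47, and when inflorescence was left out, with inflorescence next for 82 and young stem for 49. Among the other 17886 unigenes of the same leaf level, young stem was highest of these 4 tissues for 25.6%, inflorescence for 34.0%, pericarp for 22.2% and seed for 18.1%, as against 27.0%, 17.5%, 18.0% and 6.5% of the members. The members' shares leave 31.0% for those at 0 in all 4 tissues, and other unigenes of the leaf level cannot be at 0 in all 4, since they would then be members. The rule used these values, so nothing is read from setting the shares side by side. Inflorescence was the shallowest of these libraries, and young stem and seed were the deepest. Where young stem came next, its median was 6.07% of the lower leaf FPKM, and the medians were 5.75% for pericarp, 5.0% for inflorescence and 3.86% for seed.

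The members nearest the limit illustrate each next tissue. Unigene271202 had 9.74 in young leaf, 7.9 in mature leaf and 0.78 in young stem, and was at 0 in the other 4 tissues. Unigene077100 had 7.68 and 9.47 in the leaves, with 0.76 in pericarp and 0.42 in seed. Unigene076039 had 72.5 in young leaf and 144 in mature leaf, with 7.16 in inflorescence, 3.16 in pericarp, 1.66 in young stem and 0.44 in seed. These values outside the leaves are low, and at this level a single tissue decides the next rank.

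Unigene282101 was nearest under the limit, with 17.7 in young leaf and 29.4 in mature leaf, where seed had 1.77, inflorescence 0.85, young stem 0.68 and pericarp 0.45. Unigene300883 lay exactly at the limit and was left out, with 16.3 in young leaf, 4.7 in mature leaf and 0.47 in inflorescence. The limit cut through a continuous range, since 74 unigenes of the leaf level had their highest other tissue at 5 to 10% of the lower leaf FPKM, 124 at 10 to 15% and 146 at 15 to 20%. In contrast, 16494 unigenes (91.2%) reached 50% or more in at least 1 of the 4 tissues. Of 414 unigenes that missed the limit in exactly 1 tissue, young stem was the tissue concerned for 182, pericarp for 119, inflorescence for 83 and seed for 30.

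**Figure D3:**
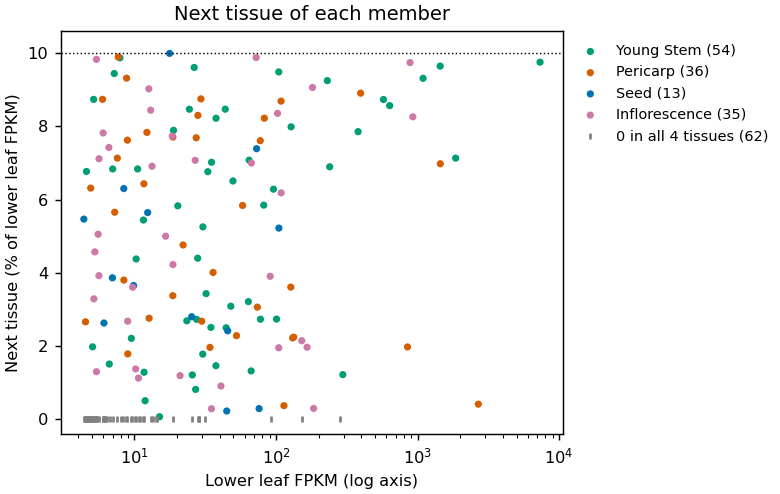
Highest FPKM among young stem, pericarp, seed and inflorescence as % of the lower leaf FPKM (y axis) against the lower leaf FPKM (x axis, log) for each member, coloured by that tissue, with the number of members in the key. The 62 members at 0 in all 4 tissues gather at low leaf levels, and the dotted line marks the limit of 10%.

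The members leaned to the mature leaf, whereas unigenes of the same leaf level leaned slightly to the young leaf in FPKM. Mature leaf was the higher stage for 136 members and young leaf for 64. The median log2 ratio of mature over young leaf FPKM was 0.29, a ratio of 1.22, with quartiles of -0.13 and 0.73. Over all 18086 unigenes of the leaf level the median was -0.13, and 39.3% were higher in mature leaf, as against 68.0% of the members. A lower leaf FPKM of at least 4.39 bounds both sets. It also set the limit for the 4 other tissues, which only the members met, so the ratio is given as a description.

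A difference of at least 2-fold in favour of mature leaf was measured in 31 members (15.5%), where 3.33% of all unigenes at the leaf level passed. In favour of young leaf it was measured in 3 members (1.5%), where 6.97% passed. At 4-fold, 11 members (5.5%) were higher in mature leaf, where 0.442% of the leaf level passed, and 0 in young leaf, where 0.929% passed. The other 166 of the 200 members lay within 2-fold, as did 16223 of the 18086 unigenes at the leaf level. Similar levels at both ages are thus not particular to the members. The lean was seen at each leaf level below 1000: 5 of 28 members at 100 to 1000 (17.9%) were at least 2-fold higher in mature leaf, 12 of 89 at 10 to 100 (13.5%) and 14 of 77 below 10 (18.2%). Among other unigenes of these levels the shares were 4.68%, 2.49% and 3.82%. All 6 members of at least 1000 were within 2-fold. At that level members and other unigenes did not differ in this way. The median log2 ratio was 0.13 for the 6 members and 0.12 for the 63 others. Mature leaf was higher for 66.7% and 71.4%.

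The scale of the leaf libraries bears on this comparison. Scaling by median-of-ratios factors over 5979 unigenes with an FPKM above 10 in all 6 tissues of the rule moved the median of the leaf level by 0.21, to 0.08. On this scale 5.28% of the leaf level was at least 2-fold higher in mature leaf and 3.92% in young leaf, so the lean of the background turned, while 42 of the members chosen again were 2-fold higher in mature leaf and 2 in young leaf.

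**Figure D4:**
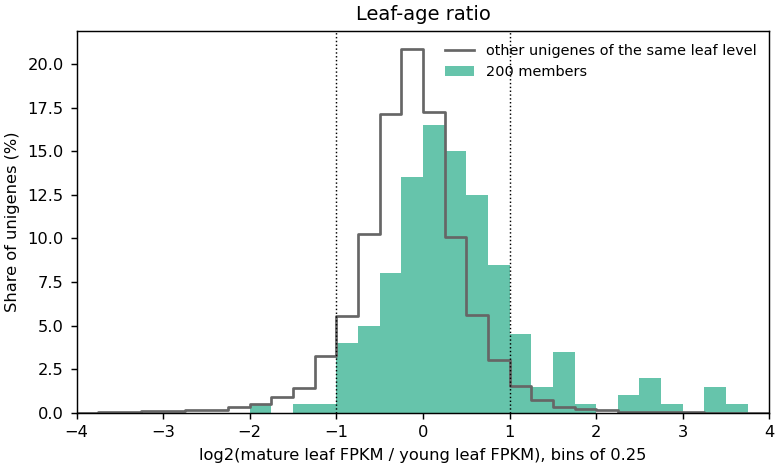
Distribution of log2(mature leaf FPKM / young leaf FPKM) (x axis, bins of 0.25, drawn from -4 to 4) as % of unigenes (y axis) for the 200 members (bars) and the other 17886 unigenes of the same leaf level (line); dotted lines mark 2-fold. The members have a median of 0.29 and a tail to the mature leaf side, where 31 lie beyond 2-fold.

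Unigene265971 and Unigene278569, the members with the highest leaf-age ratio, were low in young leaf. High ratios were not confined to low levels. A ratio of at least 4-fold towards mature leaf was measured in 2 of 28 members with a lower leaf FPKM of 100 to 1000. It was measured in 5 of 89 at 10 to 100 and 4 of 77 below 10. Among other unigenes of these levels, 0.142%, 0.338% and 0.461% passed. Unigene265971 had 100.3 in mature leaf against 7.51 in young leaf, 13.4 times as much, and was listed at 0 in the other 5 tissues. Unigene278569 had 6.09 and 66.5, 10.9 times as much, with 0.16 in seed, 0.08 in pericarp, 0.08 in inflorescence, 0.05 in young stem and 0 in mature stem. At the other end, Unigene291331 had 4.46 in mature leaf against 15.3 in young leaf, 3.43 times as much, and was at 0 elsewhere. Unigene035635 had 19.7 and 6.99, 2.81 times as much in young leaf, with 0.27 in seed, 0.18 in young stem and 0.1 in pericarp. The ratio thus reached further in the direction of mature leaf.

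The leaf-age ratio varied with the next tissue. Of the 36 members with pericarp next, 33 were higher in mature leaf, with a median log2 ratio of 0.64, and 9 were at least 2-fold higher. Of the 54 members with young stem next, 28 were higher in mature leaf and 26 in young leaf, with a median of 0.02. The medians were 0.21 for the 35 members with inflorescence next, 0.31 for the 13 with seed next and 0.32 for the 62 at 0 in all 4 tissues. Members with young stem next were thus divided about evenly between the leaf ages, and those with pericarp next were mostly higher in mature leaf. Both groups rest on the same libraries and were not tested. Other unigenes of the leaf level were not split by next tissue. Whether this pattern is particular to the members is therefore not known.

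Some members carry consecutive numbers, and some of these had nearly the same leaf-age ratio. The numbering of the unigenes is not explained in the sources used here. Of the members, 22 (11.0%) lay in 10 runs of consecutive numbers, the longest of 4. In 6 of these runs the log2 ratios lay within 0.5 of each other, and in 3 they lay more than 1 apart. How often members without consecutive numbers lie within 0.5 was not computed, so closeness within runs is a description. Of all unigenes at the leaf level, 30.4% had a direct neighbour at that level. That set holds 18086 unigenes and the members are 200, and a larger set holds more neighbours. The 2 shares are thus not comparable, and nothing is read from setting them side by side. Unigene282085 had 18.7 in young leaf and 183 in mature leaf, and Unigene282086 had 22.1 and 219, ratios of 9.78 and 9.91. Unigene227048 had 92.5 and 66.7, and Unigene227049 had 9.31 and 6.74, ratios of 0.721 and 0.724. Whether such neighbours are transcripts or fragments of the same gene was not tested, since no sequences were used. Counting each run as 1 unigene leaves 188, of which 28 were at least 2-fold higher in mature leaf and 3 in young leaf.

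A run around the member with the highest ratio shows how neighbours can also differ. Unigene265968 had 48.0 in young leaf and 321 in mature leaf with 1.48 in young stem, and Unigene265969 had 91.6 and 581 and was at 0 elsewhere, ratios of 6.7 and 6.35. Unigene265970 had 105.4 and 179, a ratio of 1.7, and was no member because of 62.5 in pericarp. Unigene265971 follows with the ratio of 13.4 given above. The most abundant member also sat beside abundant leaf unigenes that missed the limit. Unigene125171, for example, had 9016 in young leaf and 8480 in mature leaf, with 1339 in young stem, 1203 in inflorescence and 1142 in pericarp, so that its next tissue was at 15.8%. These neighbours were chosen after their values were seen.

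Most members were listed at 0 in mature stem, which the rule ignored. This held for 192 members (96.0%), where 76.1% of all unigenes at the leaf level were also at 0. A higher share than in other unigenes was listed at 0 at each level: 4 of 6 members of at least 1000 were at 0, as against 17.5% of other unigenes of that level, 24 of 28 at 100 to 1000 against 37.6%, 87 of 89 at 10 to 100 against 69.5%, and 77 of 77 below 10 against 86.5%. The 8 members above 0 had an FPKM of 0.11 to 1.35 there. The highest was Unigene211795 with 1.35, described above. Unigene073021 followed with 0.35 in mature stem, 926 in young leaf, 1330 in mature leaf, 76.5 in inflorescence, 64.5 in pericarp, 63.5 in young stem and 13.5 in seed. When mature stem was held to the same limit, all 200 members were kept. This library shares few unigenes with any other tissue, and the part of this in the zeros of the members was not tested.

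A member of the iridoid list was Unigene276335. By sequence similarity it is annotated as 7-deoxyloganic acid hydroxylase (7DLH), an enzyme that in *Catharanthus roseus* adds the hydroxyl group that turns 7-deoxyloganic acid into loganic acid. Like the other unigenes annotated as 7DLH except Unigene110474, it is not in the list of cytochrome P450s. That list had been filtered on length and FPKM, so nothing is read from this. The activity of Unigene276335 was not tested. Its FPKM was 103.6 in young leaf, 76.0 in mature leaf and 0.22 in seed, and it was listed at 0 in young stem, mature stem, pericarp and inflorescence. The next tissue was at 0.29% of the lower leaf value, and the young leaf value was 1.36 times that of the mature leaf. The other 4 unigenes annotated as 7DLH did not share this pattern. Unigene120969 had 263.8 in pericarp against 49.2 in young leaf and 62.0 in mature leaf, and Unigene112559 had 38.0 in pericarp against 2.69 and 0.6. Unigene283926, with 18.5 and 28.1 in the leaves and 13.9 in pericarp, and Unigene110474, with 8.0 and 9.17 in the leaves and 6.13 in pericarp, were highest in mature leaf but missed the limit.

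The other 3 named members are annotated as cytochrome P450s, a large family of oxidizing enzymes, without a named reaction. Unigene224632 was the highest, with 396 in young leaf and 462 in mature leaf. Pericarp had 35.3, young stem 27.7, inflorescence 21.7 and seed 5.69, and mature stem was listed at 0. It is also in the shorter list of P450s that were selected for their correlation with iridoid levels in these tissues, so its place there is not independent of its profile. Unigene114685 had 18.7 in young leaf and 28.3 in mature leaf, with 0.79 in inflorescence, 0.58 in seed and 0.23 in young stem. Unigene122431 had 7.25 in young leaf and 23.6 in mature leaf, a ratio of 3.26, with 0.41 in pericarp, 0.31 in young stem and 0.21 in seed. Both were listed at 0 in mature stem. The first 2 of these P450s lay within 2-fold between the leaf ages, and the last was higher in mature leaf.

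Over all annotation lists, 7 of 549 unigenes (1.28%) met the limit at any level, where 1.13% of all 304371 did. Of the 262 listed P450s, 85 were at the leaf level and 3 of these were members. Of the 83 iridoid unigenes 28 were at the leaf level and 1 was a member. Of the 182 triterpenoid unigenes 30 were at the leaf level, and of the 37 gallotannin unigenes 15, with 0 members in either list. Among the 150 listed unigenes at the leaf level, the 4 members made up 2.67%, where 1.11% of all unigenes at that level met the limit. The P450 list had been filtered on length and on an FPKM above 5 in at least 1 tissue, so the lists are not a random sample of unigenes.

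A further 3 annotated unigenes met the limit below the leaf level of the members. Unigene288660, annotated as geraniol synthase (GES), which forms the geraniol from which iridoids start, had 4.31 in young leaf, 8.41 in mature leaf and 0.4 in inflorescence and was at 0 elsewhere. It ranked 203 among the unigenes that met the limit. The other 6 GES unigenes did not meet the limit. Unigene239329, annotated as cycloartenol synthase (CAS), which closes the ring system of plant sterols, had 0.91 and 2.5 in the leaves. Unigene254330, annotated as an amyrin oxidase (AO), which oxidizes the triterpenoid skeleton, had 0.73 and 0.86. Both were at 0 in the other 5 tissues.

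Sharing between the leaf stages was compared with sharing between the other pairs of tissues under the same rule. At an FPKM of at least 10 in both tissues of a pair and below 10% of the lower value in the other 4, the leaf pair held 123 unigenes. This was 1.26% of the 9765 unigenes at that level in both leaves. The other 14 pairs held 0 to 29 unigenes each and 85 in all, led by pericarp and seed with 29 (0.321% of 9047). Young stem and seed held 16, seed and inflorescence 16, and young leaf and young stem 6. The leaf pair also held the most unigenes at a limit of 5%, with 68 against 16 for pericarp and seed, and on TPM, with 123 against 29. At an FPKM of at least 1 the order changed: the leaf pair held 1866 unigenes, and 3 pairs held more, young stem and seed with 2546, pericarp and seed with 2351 and young stem and inflorescence with 1889. The FPKM worth of 1 fragment was lowest in young stem and seed, as given above, and the part of depth in this change was not tested.

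Each leaf stage on its own had few such unigenes. The limit here was an FPKM of at least 10 and below 10% of that value in the other 5 tissues. For young leaf 20 unigenes were counted, 0.163% of the 12306 at that level. For mature leaf there were 36, 0.325% of 11075. Both leaves shared 123, 1.26% of 9765. In the other tissues this order was the reverse, with 970 unigenes in inflorescence alone (6.56% of 14794) and 484 in seed (3.83% of 12622). Pericarp alone had 152 (1.23% of 12313) and young stem 83 (0.62% of 13389). Leaf enters this count with 2 libraries, as does the fruit with pericarp and seed.

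**Figure D5:**
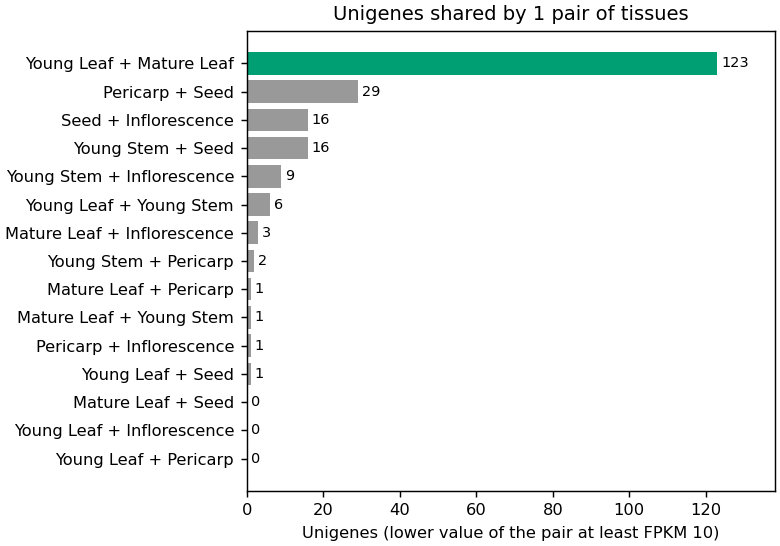
Number of unigenes (x axis) with an FPKM of at least 10 in both tissues of a pair (y axis) and below 10% of the lower value in the other 4 tissues. The leaf pair holds 123 and each of the other 14 pairs 29 or fewer.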

How the data were processed

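RNA-seq was performed on 7 tissues with 1 library each. The authors trimmed the reads with Trimmomatic, joined *de novo* assemblies from 3 assemblers, clustered redundant sequences (CD-HIT-EST), aligned each library to the unigenes (Bowtie) and obtained FPKM from RSEM. These deposited FPKM values, given to 2 decimals, hold neither counts nor unigene lengths, so no interval could be set on them. RSEM shares reads among similar sequences, so values of near-identical unigenes are less certain. The table of all tissues and the 7 tissue tables had 0 differing values.

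The limit of 10% was applied to whole hundredths of an FPKM, and the 200 unigenes with the highest lower leaf FPKM were taken, ties by identifier. The leaf level is every unigene with a lower leaf FPKM at or above that of the last member. The next tissue is the highest of young stem, pericarp, seed and inflorescence. Relative depth is the most frequent ratio to young leaf, in bins of 0.04 on the log2 scale. The members, lists and measures were chosen with earlier results of these data known. Named unigenes were the extremes of level, leaf-age ratio, limit, next tissue and mature stem, and every annotated member, except those said to be chosen after their values were seen. Enzyme names were read from the annotation lists of the series. No test was made. Alternatives covered the limit, the scale, the number of members, the tissues in the rule, the fold threshold and the pseudocount. Python 3.11.15 with numpy 2.4.6, pandas 2.3.3 and matplotlib 3.10.9 was used, and the scripts were tested on simulated data.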

Additional observations from a re-analysis of the deposited data

How the results depend on the processing

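Of 110 values recomputed under another setting, 78 stayed within 1.5 times of the value given (a log2 median within 0.1) and 32 moved further. Only a log2 median could change sign, and 0 did. The counts of 31 and 3 members could not change with a background of lower leaf FPKM at least 1, which leaves the members as they are. Holding mature stem to the limit also kept the same 200 members, so the values of the members stayed the same by identity. Counts with 100 or 400 members partly follow the size of the set. The 78 and 32 thus include values that the setting itself fixed or shifted. The median of the leaf level, which turned from -0.13 to 0.08 on median-of-ratios scaling, is not among the 110. A limit of 5% gave shares of 0.886% of young leaf and 1.64% of mature leaf, 24 members with young stem next, 2 annotated members and 68 unigenes for the leaf pair. A limit of 20% gave 12% and 14.7%, 94 members with young stem next and 2 annotated members. At that limit 18 members (9.0%) were 2-fold higher in mature leaf, where 3.28% of the leaf level of that setting passed. TPM gave a young leaf share of 1.95%, as 8 members, the most abundant among them, no longer met the limit, and these had held 1.23% of young leaf. Median-of-ratios scaling gave shares of 5.28% and 6.22% and a median log2 ratio of 0.45. Without young stem in the rule, 6406 unigenes met the limit, the shares were 6.77% and 7.27% and the median was 0.11. Then 133 members had young stem next and 7 (3.5%) were 2-fold higher in young leaf, where 5.67% of that leaf level passed. Without pericarp the median was 0.41, and without inflorescence 7 members were annotated. With 100 members, 14 were 2-fold higher in mature leaf, 1 in young leaf and 92 at 0 in mature stem. Of the leaf level of that setting, 2.98% were 2-fold higher in mature leaf and 5.71% in young leaf. With 400 members these counts were 68, 12 and 392, and the median was 0.12. There 4.31% of the leaf level were 2-fold higher in mature leaf and 8.54% in young leaf. The share of the leaf level at 0 in mature stem is given only for the main setting, at 76.1%. At 1.5-fold, 67 members were higher in mature leaf and 16 in young leaf, where 9.92% and 18.5% of the leaf level passed. At an FPKM of at least 1 the leaf pair held 1866 unigenes. Counting runs of consecutive numbers once, leaving out the most abundant member and recounting the annotated members were added after the data had been seen. No paired analysis was possible because each tissue has 1 library. The number of fragments behind each FPKM is unknown, so a value of 0 outside the leaves limits members of a low leaf level most.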
